A study of Mus musculus with 4 samples.

Results

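Resting natural killer (NK) cells made up 494 of the 16327 cells kept (3.03%) from the sorted human CD45+ fraction of tumors grown from MDA-MB-231 in 14 humanized mice. A kept barcode had above 600 and at most 6000 detected genes, above 87.5% of its counts outside the mitochondrial genes and at least 60% of its hashtag counts on 1 hashtag, so that it could be given to 1 mouse. A kept cell was taken as a resting NK cell when it held at least 2 unique molecular identifiers (UMIs, each standing for 1 counted RNA molecule) of NCR1, KLRF1, KLRC1 and NCAM1 together, at most 1 of CD3D, CD3G and TRAC, at most 1 of TOP2A and MKI67, and at most 4 of C1QA, C1QB and LYZ. These RNA counts chose the cells, so the levels of those genes describe the rule and are not results. The word resting refers to the limit on the cycle genes TOP2A and MKI67 alone and not to activation.

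All 14 mice were of the MISTRG strain, whose members carry human genes for the growth factors IL-3, GM-CSF and M-CSF, and all had been irradiated as newborns and engrafted with human fetal liver CD34+ cells. The lymphocytes therefore developed from these grafts in the mouse. The number of graft donors, the ages of the mice at implantation and the further alleles of the strain were not given in the sources used here. Every mouse carried a tumor of MDA-MB-231, a human breast carcinoma line, in the mammary fat pad. Of these animals, 7 were left untreated and 7 received maraviroc, a small-molecule drug, in the drinking water for 10 days from day 21 after implantation. All tumors were taken on day 31. Cells were marked with a hashtag antibody per mouse, and live human CD45+ cells were then sorted and sequenced one by one from the 3' end of their RNA in 2 reactions. Reaction 1 was made of 4 untreated mice and 3 given maraviroc, reaction 2 of 3 untreated mice and 4 given maraviroc. The labels name the mouse host as the organism, while the counted genes were human.

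NK cells are innate lymphocytes that kill stressed, infected or transformed cells without prior priming, by releasing granules with perforin, granulysin and granzymes. Whether they fire is set by the balance between activating receptors, which signal through small adaptors such as TYROBP, FCER1G and CD247, and inhibitory receptors for HLA class I, such as the NKG2A chain encoded by KLRC1 and the KIR family. They also release XCL1 and XCL2, which attract cross-presenting dendritic cells, and CCL3, CCL4 and CCL5, which attract other leukocytes. Human NK cells are commonly divided into a CD56-bright type, rich in cytokines, and a CD56-dim type that carries the antibody receptor CD16, encoded by FCGR3A.

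Reaction 1 gave 283 resting NK cells of 7361 kept cells (3.84%, 95% exact binomial interval 3.42% to 4.31%) and reaction 2 gave 211 of 8966 (2.35%, 2.05% to 2.69%). The intervals cover counting error only. The median resting NK cell had 5225 UMIs in reaction 1 and 6513 in reaction 2, against medians of 5785 and 10663.5 over all kept cells. Each mouse contributed between 16 and 64 resting NK cells, with 91863 to 357286 UMIs in total, and these sums per mouse were the units of every test. Of all barcode sequences, before any limit, 136 occurred in both reactions, and 0 sequences belonged to a resting NK cell in both. Doublets were not called. The hashtag limit and the limits on T cell and myeloid genes were the guards against them, and doublets within a mouse could pass the hashtag limit.

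KLRC1 carried most of the choice. It was found in 469 of the 494 cells (94.9%), NCAM1, which encodes CD56, in 288 (58.3%), NCR1, which encodes the activating receptor NKp46, in 209 (42.3%) and KLRF1, which encodes NKp80, in 49 (9.92%). The median cell had 7 UMIs of these 4 genes and the highest had 60. At the edge of the rule, 63 cells stood at exactly 2 UMIs, 431 stood above it, and 130 cells that met every other limit stood just outside with 1 UMI. Pooled GNLY, a gene outside the rule, was at 9296 CPM (counts scaled to a library total of 1000000 UMIs) in the cells at 2 UMIs, at 16024 in those above and at 3406 in those just outside. Pooled SPP1, a macrophage gene, ran the other way, with 1338, 340 and 1906 CPM. Median depth also differed, with 3306, 6082 and 1853 UMIs per cell. A single CD3D, CD3G or TRAC UMI was held by 171 members, and 188 further cells would have been members but for 2 or 3 such UMIs. A single cycle gene UMI was held by 113 members, with 83 cells outside at 2 or 3, and 9 cells stood outside with 5 or 6 myeloid UMIs, while 297 members had 0 of these.

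The cells matched the label in the markers that the rule did not use. GNLY, which encodes the pore-forming granule protein granulysin, was at 14486 CPM in the mean of the 14 mice (lowest 8570, median 14639, highest 24258) and was ranked 2 among all genes. XCL1 was at 998 CPM in the mean and was found in 73.9% of the cells. In the pooled counts GNLY was at 15464.5 CPM (95% exact Poisson interval 15327 to 15603) in resting NK cells, at 2218 (2160 to 2276) in CD8 T cells and at 42.9 (41.5 to 44.4) in cells of a myeloid gate, defined by at least 10 UMIs of C1QA, C1QB and LYZ. XCL1 stood at 1041 CPM (1006 to 1077), 138 (124 to 153) and 3.22 (2.82 to 3.65) in the same order. The myeloid gate also kept the T cell and cycle gene limits of the rule and took under 2 UMIs of its NK genes. Cells with more NK gene UMIs were thus left out of it. Since each molecule was counted once at its 3' end, CPM did not need scaling by transcript length.

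Abundant NK products beside GNLY included chemokines and granule proteins. The chemokine gene CCL5 was ranked 14 by mean CPM over mice, at 3354, and CCL4 was ranked 32, at 2081. The granule membrane protein gene NKG7 stood at 1810 CPM, and the protease genes GZMB and GZMA at 1493 and 1471. XCL2 was at 1053 and CCL3 at 881 CPM. Reads of XCL1 and XCL2, of CCL3 and CCL4 and their copies CCL3L3 and CCL4L2, of KLRC1 and KLRC2, and of the KIR genes can be assigned to a near-identical neighbor, so their separate values are uncertain.

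Several inhibitory receptors were found beside KLRC1. KLRD1, the CD94 partner of the NKG2 chains, was at 443 CPM in the pooled counts and in 74.3% of cells, CD96 at 759 CPM and in 82.6%, HAVCR2, which encodes TIM-3, at 268 CPM and in 62.6%, and TIGIT at 162 CPM and in 40.3%. KIR2DL1, KIR2DL3 and KIR3DL1 were each found in 11.5% to 14.2% of cells. In the deeper cells of the myeloid gate (median 8294 and 12935.5 UMIs in reactions 1 and 2), HAVCR2, which myeloid cells also express, was found in 78.5% at 242 CPM, KLRD1 in 10.4%, CD96 in 2.68%, TIGIT in 2.21% and the 3 KIR genes in 0.0817% to 0.229%. PDCD1, which encodes PD-1, had 11 UMIs in all 494 cells (3.52 CPM, 1.76 to 6.30) and LAG3 stood at 30.7 CPM (24.9 to 37.5). S1PR5 and CX3CR1, genes of circulating CD56-dim cells, had 6 and 7 UMIs (1.92 and 2.24 CPM), while CD69, a marker of activation and tissue retention, was in 84.4% of the cells at 823 CPM, against 49.3% of the myeloid gate at 160 CPM.

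**Figure D1:**
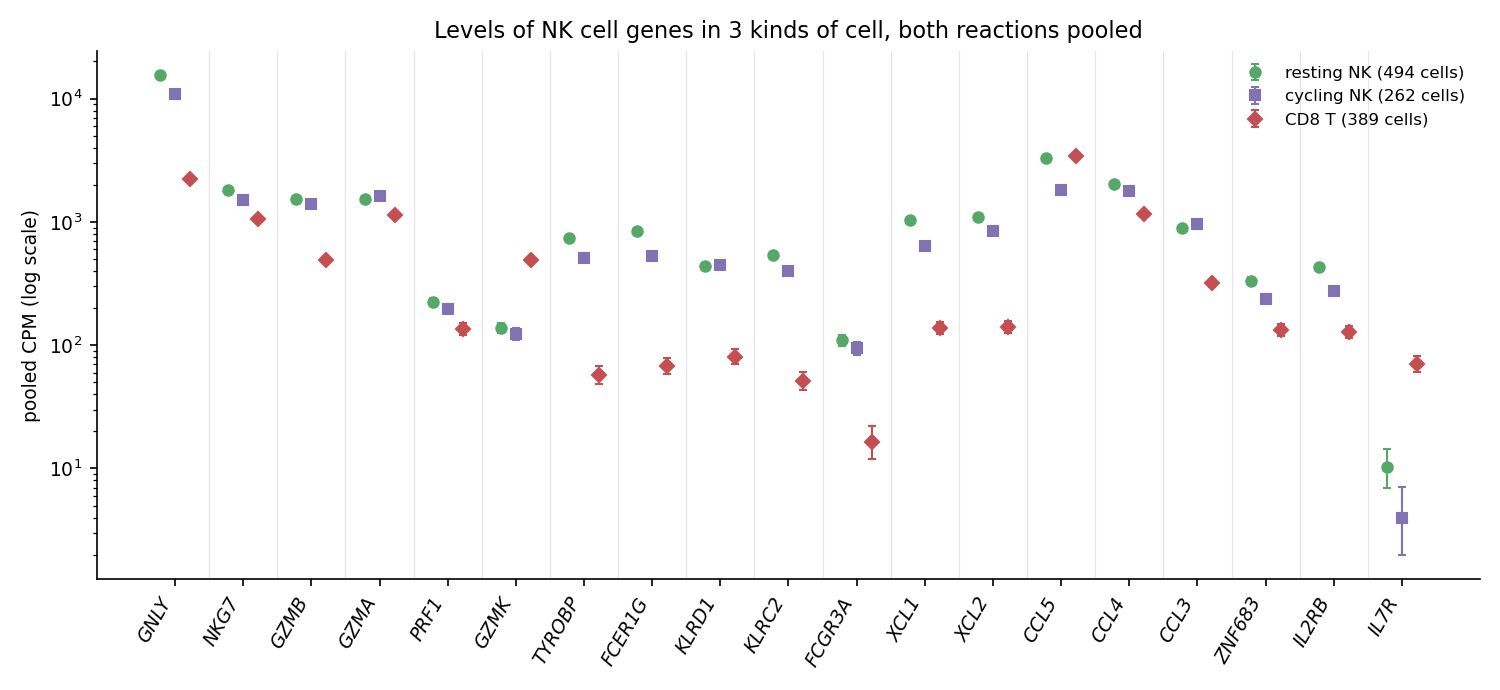
Pooled CPM (log axis) of NK cell genes in 494 resting NK, 262 cycling NK and 389 CD8 T cells of both reactions, with bars for the 95% exact Poisson interval, which covers counting error only. GNLY, TYROBP, FCER1G, KLRD1, KLRC2, XCL1 and XCL2 stood well above the CD8 T cells, CCL5 at a like level, and GZMK and IL7R below them.

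Markers of other cell types were present at uneven levels. The 12 T cell markers outside the rule summed to 1438 CPM in the mean of the mice (1244.5 to 1592), of which TRDC alone gave 723. TRDC, the constant region of the delta chain, is also transcribed without rearrangement in NK cells. The 10 markers of innate lymphoid cells summed to 165 CPM, of which GATA3 gave 122, while PTGDR2 was at 0 and KIT had 4 UMIs. The count of 0 for PTGDR2 allows up to 0.960 CPM (3 UMIs). B cell markers summed to 109 CPM with a median of 55.3, plasmacytoid dendritic cell markers to 11.8 and mast cell markers to 3.07, with TPSAB1 at 0. Of the 134 CPM of tumor cell markers, 128 came from KRT81. This keratin gene was found in 42.1% of resting NK cells, in 33.2% of cycling NK cells and in 0.915% of the myeloid gate, whereas the epithelial keratins KRT8 and KRT18 had 2 and 3 UMIs in resting NK cells and LCN2 was at 0.

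Macrophage markers summed to different levels in the reactions. The 16 macrophage markers outside the rule summed to 2386 CPM in the mean of the mice (775 to 5511), with 3465 in reaction 1 and 1308 in reaction 2, and FTL, a ferritin gene that all cells use, gave 1314 of the total. SPP1 was found in 73.1% of resting NK cells at 423 CPM, against 62.2% of CD8 T cells at 188 CPM and 92.0% of the myeloid gate at 8529 CPM. The part of free RNA or of doublets in these values was not tested.

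To set the resting NK cells apart from the other cytotoxic lymphocytes of the tumors, they were compared with CD8 T cells of the same mouse. A CD8 T cell held at least 2 UMIs of CD3D, CD3G and TRAC and at least 2 of CD8A and CD8B. It met the same cycle and myeloid limits and held under 2 UMIs of NCR1, KLRF1, KLRC1 and NCAM1 together. CD8 T cells with more NK gene UMIs were thus left out. The part of this limit in the values of other NK receptor genes was not tested. Most of the activating receptors and adaptors tested, XCL1, XCL2, GNLY, GZMB and NFKBIA were higher in resting NK cells, while GZMK, LAG3, IL7R and BCL11B were lower. In the 11 mice with at least 10 cells of both kinds, 5569 genes were tested and 915 had an adjusted p under 0.05 (edgeR's quasi-likelihood test paired by mouse, Benjamini-Hochberg adjustment over all genes), or 16.4% of those tested. Of these, 537 were higher in resting NK cells (9.64%) and 378 lower (6.79%), and over all genes tested the log2 fold change had a median of -0.014. Genes of either gate were left out of these counts. DESeq2 called 724 genes. The depth was alike, with a median of 6647 UMIs per cell in the resting NK cells of a mouse and 6672 in its CD8 T cells.

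Activating receptors and adaptors had 14 of 18 tested members higher and 2 lower, and their median was 1.44 on the log2 scale, against -0.014 over all genes. Of the 22 listed genes, 18 passed the filter on low counts, and nothing was read from that. TYROBP, the adaptor of KLRC2 and of activating KIRs, was at 453 to 1073 CPM in resting NK cells (median 694) and at 0 to 110 CPM in CD8 T cells (median 44.8). The ranges did not overlap (log2 fold change 3.90, standard error 0.21, n = 11 mice, adjusted p = 6.62e-13 by edgeR). FCER1G, the adaptor of CD16 and NKp46, was at 643 to 1058 CPM (median 825) against 0 to 165 (median 52.5), again without overlap, with a log2 fold change of 3.81. KLRC2, which encodes the activating chain NKG2C, differed by 3.34 and FCGR3A by 2.80 on the log2 scale, both higher in 11 of 11 mice. The adaptor gene SH2D1A, which serves SLAM family receptors, and SLAMF6 were the members that were lower.

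Among 9 inhibitory receptors tested, 6 were higher in resting NK cells and 1, LAG3, was lower. KLRD1 was at 245 to 659.5 CPM (median 446) in resting NK cells and at 21.1 to 154 CPM (median 81.7) in CD8 T cells, so that the ranges did not overlap (log2 fold change 2.49, adjusted p = 2.61e-09 by edgeR). KIR2DL4 differed by 4.34 on the log2 scale. LAG3 was at 7.11 to 77.6 CPM against 47.3 to 280.5 CPM, with overlapping ranges and a log2 fold change of -1.83 (higher in CD8 T cells in 10 of 11 mice).

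Cytotoxic genes were split. Of 17 tested, 8 were higher and 4 lower, and the list's median was 0.42 on the log2 scale. GNLY was at 8570 to 16043 CPM (median 13995) against 913 to 4267 CPM (median 2073), without overlap (log2 fold change 2.44, standard error 0.15). GZMB was at 980 to 2225 CPM (median 1535) against 191 to 662 CPM (median 499), also without overlap (1.65 on the log2 scale), and CTSW, a cathepsin of killer cells, differed by 1.87. NKG7 and PRF1, the perforin gene, differed by 0.78 and 0.93. The trypsin-like protease gene GZMK, in contrast, was at 33.9 to 273 CPM (median 135) against 146 to 718 CPM (median 399) and was lower in 11 of 11 mice (log2 fold change -1.71, adjusted p = 4.87e-07 by edgeR). GZMA did not pass the test (0.19, adjusted p = 0.183 by edgeR).

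Chemokine and cytokine genes had 8 of 16 members higher and 2 lower. XCL1 was at 302 to 1348 CPM (median 996) in resting NK cells and at 17.7 to 440 CPM (median 157) in CD8 T cells. The ranges met only through the lowest NK value, and XCL1 was higher in 11 of 11 mice (log2 fold change 2.78, adjusted p = 9.57e-09 by edgeR), as was XCL2 (2.82). CSF2, which encodes GM-CSF, and the growth factor gene AREG differed by 3.70 and 3.14. Of the chemokines CCL3, CCL4 and CCL5, the first 2 passed the test, with CCL3 at 299 to 1619 CPM (median 790) against 89.5 to 934 CPM (median 272) and a log2 fold change of 1.58, CCL4 at 0.93 and CCL5 at 0.01. CCL5 was at 2386 to 5639 CPM (median 2863) in resting NK cells and at 2302 to 5028 CPM (median 3591) in CD8 T cells, higher in 5 of 11 mice and lower in 6 (adjusted p = 0.980 by edgeR, standard error 0.09). FLT3LG, a growth factor gene for dendritic cells chosen after its values were seen, was at 31.7 CPM (25.7 to 38.6) in pooled resting NK cells and 42.4 (34.8 to 51.2) in pooled CD8 T cells and did not pass the filter on low counts. LTB and IL32 were the members lower in resting NK cells.

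No homing or chemokine receptor of the 13 tested was higher in resting NK cells and 6 were lower, CCR7, CXCR4, CXCR6 and S1PR4 among them (by edgeR, with 2 higher at an unadjusted p under 0.05). Genes of tissue residency were mixed, with 5 of 12 higher and 2 lower. ZNF683, which encodes the residency factor HOBIT, differed by 1.26, while CXCR6 was lower by 2.57 on the log2 scale and was at 0 to 75.4 CPM (median 5.68) against 0 to 119 CPM (median 71.6). ENTPD1, which encodes CD39, differed by 1.03, but by 0.47 in reaction 1 alone (adjusted p = 0.524 by edgeR) and by 0.57 with at least 80% of hashtag counts on 1 hashtag (adjusted p = 0.302). CD69 differed by 0.52 and, with like values of 0.49 and 0.53, did not pass in reaction 1 or reaction 2 alone (adjusted p = 0.0679 and 0.0674 by edgeR), nor at the 80% limit (0.64, adjusted p = 0.0810).

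Cytokine receptor genes had 4 of 13 members higher and 1 lower. IL2RB, the beta chain shared by the receptors of IL-2 and IL-15, was at 297 to 647 CPM (median 406) against 81.7 to 459 CPM (median 131) and differed by 1.64, while IL7R was at 0 to 42.7 CPM (median 5.64) against 2.89 to 211 CPM (median 67.2) and differed by -2.31. Of 25 transcription factors, 5 were higher and 6 lower. IRF8 differed by 2.35 and BCL11B, a factor of T cell identity, by -3.14, with 28.2 to 198 CPM against 246 to 850 CPM.

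Of 17 genes of activation and NF-kB signaling, 10 were higher in resting NK cells and 0 lower (median 0.76), and of 17 immediate early genes, 8 were higher and 0 lower (median 0.59). NFKBIA, an inhibitor and early target of NF-kB, was at 198 to 936 CPM (median 647) against 94.3 to 318 CPM (median 196.5), a log2 fold change of 1.64. BHLHE40 differed by 1.40 and the orphan receptor gene NR4A1 by 1.57, each higher in 11 of 11 mice. Interferon-stimulated genes had 1 of 34 higher, IFITM3 (2.69), and 1 lower, MHC class II genes 0 of 8 and hypoxia and glycolysis genes 0 of 16 in either direction. For the last 2 lists edgeR had 0 and 3 genes with an unadjusted p under 0.05, respectively.

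T cell genes travel with the gates and are given as a description. Of 10 T cell markers outside the rule, 8 were lower in resting NK cells and TRDC was higher (4.54 on the log2 scale, 641 to 888 CPM against 0 to 182). CD3E was at 141 to 299 CPM (median 177) against 254 to 441 CPM (median 289), so CD3E RNA was present in both kinds of cell. The genes of lowest p also included CD2, ICOS, CD27, SIT1, THEMIS and GRAP2 on the CD8 T side and ADGRG3, ITGAD, ATP8B4 and PPP1R9A on the NK side. ADGRG3 was at 54.4 to 214.5 CPM in resting NK cells with a CD8 T median of 0, and ITGAD, the integrin alpha-D gene, at 56.4 to 267 CPM with a CD8 T median of 0. Markers of other cell types moved beside these calls. KRT81, the 1 tumor cell marker tested, was higher in resting NK cells in 10 of 11 mice (log2 fold change 4.07, adjusted p = 2.38e-06 by edgeR). It was at 19.3 to 260 CPM (median 88.0) against 0 to 89.6 CPM (median 0). Tumor cell markers summed to 113 CPM against 43.4 in the mean, of which KRT81 gave 108 and 10.7. The other listed tumor cell markers thus had a lower mean sum in resting NK cells. The mean sum of the CD8 T cells lay far above their median of 13.6 CPM, with 298 CPM in the highest mouse. Resting NK cells had a median sum of 90.2 CPM and a highest of 273. Macrophage markers had 4 of 8 higher and 0 lower and summed to 2504 CPM against 1175. The part of these cells' RNA in the calls was not tested. With C1QA, C1QB and LYZ at 1 UMI or less the difference of VCAN, a monocyte gene, went from 2.76 to 1.41 and was no longer called. Of the other genes named in this comparison, CCL4, LTB, CXCR4, IL7R and CD3E did not pass in reaction 1 alone, with log2 fold changes of 0.72, -0.70, -0.43, -2.20 and -0.57 (adjusted p = 0.155, 0.151, 0.556, 0.0540 and 0.156 by edgeR), and IL32 did not in reaction 2 alone (-0.56, adjusted p = 0.0511). At the 80% hashtag limit CCL4, LTB and CXCR4 had 1.31, -0.40 and -0.93 and did not pass (adjusted p = 0.0823, 0.655 and 0.0655 by edgeR).

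**Figure D2:**
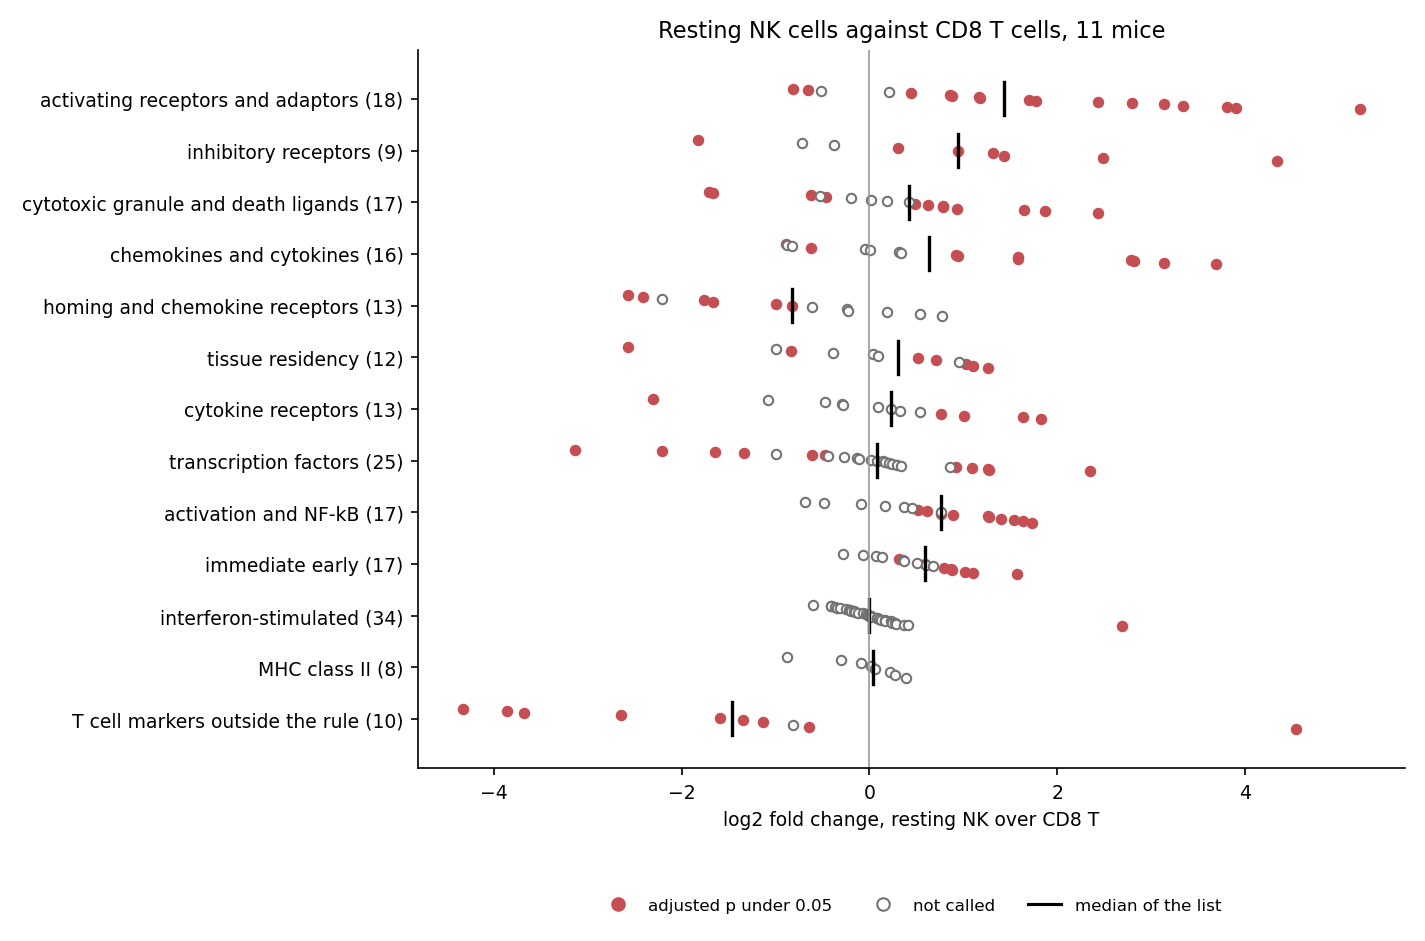
Log2 fold change of resting NK over CD8 T cells in 11 mice for the tested members of 13 gene lists, 1 point per gene, filled where the adjusted p from edgeR was under 0.05, with a bar at the list median. Points lay mostly to the right for activating receptors (14 higher, 2 lower) and for NF-kB genes (10 higher, 0 lower), and to the left for homing receptors (0 higher, 6 lower).

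Resting NK cells were next compared with the 262 cycling NK cells, which met the same limits except for at least 2 UMIs of TOP2A and MKI67. The resting NK sums are largely those of the comparison with CD8 T cells, so the comparisons are not independent. Cycle genes were lower in the resting cells, which the gate fixes, while CCL5, LTB, XCL1, CD69 and the adaptor genes HCST, FCER1G and TYROBP were higher. In 13 mice, 6060 genes were tested and 1085 had an adjusted p under 0.05 by edgeR (17.9%), of which 447 were higher in the resting cells (7.38%) and 638 lower (10.5%). DESeq2 called 865. Cycling cells were deeper, with a median over mice of 11680 UMIs per cell against 6661, and the part of depth in these differences was not tested.

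Of 26 cycle genes outside the rule, 24 were lower in resting cells, and the list's median was -2.52 on the log2 scale. The spindle gene ASPM, for example, was at 4.85 to 28.2 CPM in resting cells and at 123 to 546 CPM in cycling cells (log2 fold change -4.78), and the histone gene HIST1H4C at 96.9 to 266 CPM against 1154 to 2412 CPM. HMGB2 and TUBA1B differed by -2.70 and -2.61. These differences describe the gates.

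Outside the cycle, CCL5 had the lowest p among the genes that were higher in resting cells. It was at 2386 to 4801 CPM (median 2863) against 1071 to 2740 CPM (median 1736) in cycling cells, and was higher in 13 of 13 mice although the ranges overlapped (log2 fold change 0.91, standard error 0.09, adjusted p = 1.39e-08 by edgeR). LTB, the lymphotoxin beta gene, differed by 1.52, IL32 by 0.69 and XCL1 by 0.69. XCL1 was at 302 to 1348 CPM (median 996) against 297 to 1053 CPM (median 614). CCL3 did not pass the test (0.03, adjusted p = 0.937 by edgeR), nor did CCL4 (0.45, adjusted p = 0.0755 by edgeR) or XCL2 (0.31, adjusted p = 0.0652 by edgeR). XCL2 did pass with DESeq2 size factors (adjusted p = 0.0426 by edgeR) and with C1QA, C1QB and LYZ at 1 UMI or less (0.0113). It also passed without untreated replicate 1 of reaction 2 (0.00882) and with all genes that had a count (0.0137). CCL4 passed with all genes that had a count (0.49, adjusted p = 5.19e-06 by edgeR). XCL1 did not pass in reaction 2 alone (0.48, adjusted p = 0.0646 by edgeR) or at the 80% hashtag limit (0.53, 0.0876). In all, 7 of 16 chemokine and cytokine genes were higher and 0 lower, with a median of 0.58 against 0.015 for all tested genes.

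The cytotoxic genes differed little in size. GNLY was at 8570 to 24258 CPM (median 14451) in resting cells and at 5945 to 14640 CPM (median 10379) in cycling cells, and was higher in 12 of 13 mice (log2 fold change 0.48, standard error 0.10, adjusted p = 0.00067 by edgeR). NKG7 differed by 0.32 but did not pass in either reaction alone (0.41 and 0.26, adjusted p = 0.0994 and 0.0947 by edgeR), and GNLY did not pass at the 80% hashtag limit (0.25, adjusted p = 0.492). In the list, 6 of 17 genes were higher with 0 lower, while GZMB did not pass the test (0.27, adjusted p = 0.107 by edgeR). GZMB did pass in reaction 2 alone (0.50, adjusted p = 0.0136 by edgeR), against 0.03 in reaction 1 (0.954), with all genes that had a count (0.31, 0.0184) and at 3 NK gene UMIs or more (0.33, 0.0419). Of 18 activating receptors and adaptors tested, 5 were higher and 1 lower, and 12 did not pass. HCST differed by 0.59, FCER1G by 0.67 and TYROBP by 0.54. KLRB1, which encodes the lectin receptor CD161, differed by 0.69, but did not pass in reaction 2 alone (0.31, adjusted p = 0.217 by edgeR). The 1 lower member, the adaptor gene SH2D1A, was lower in 13 of 13 mice (-0.91), but it differed by -0.05 at the 80% hashtag limit (adjusted p = 0.953 by edgeR) and did not pass in reaction 1 alone (-0.80, 0.0638).

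Of 17 genes of activation and NF-kB signaling, 8 were higher in resting cells and 0 lower, and of 18 immediate early genes, 10 were higher and 0 lower, with CD69 at 0.68 and JUNB at 0.69, the latter not called in reaction 1 alone (0.55, adjusted p = 0.133 by edgeR) or at the 80% hashtag limit (0.50, 0.278). CD69 was at 454 to 1178 CPM (median 767) against 213 to 869 CPM (median 492). IL2RB differed by 0.62. Of 6 genes of the STAT5 response tested, 2 were higher and 0 lower, CCND2 by 0.81 and BCL2 by 0.61, and BCL2 did not pass in reaction 2 alone (0.41, adjusted p = 0.151 by edgeR) or at the 80% hashtag limit (0.34, 0.430). The macrophage markers moved beside these, with 6 of 9 tested higher in resting cells, led by VCAN (2.96), and a sum of 2446 CPM against 1358. KRT81 was also higher (0.92, mean 119 CPM against 60.1, in 10 of 13 mice) but not called in reaction 2 alone (0.41, adjusted p = 0.363 by edgeR). Tumor cell markers summed to 126 CPM against 108 in the mean, so those other than KRT81 had a lower mean sum in resting cells. The mean of the cycling cells lay far above their median of 58.1 CPM, with 631 CPM in the highest mouse. Resting cells had a median sum of 96.5 CPM and a highest of 306. With C1QA, C1QB and LYZ at 1 UMI or less, 949 genes were called and VCAN differed by 1.99.

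**Figure D3:**
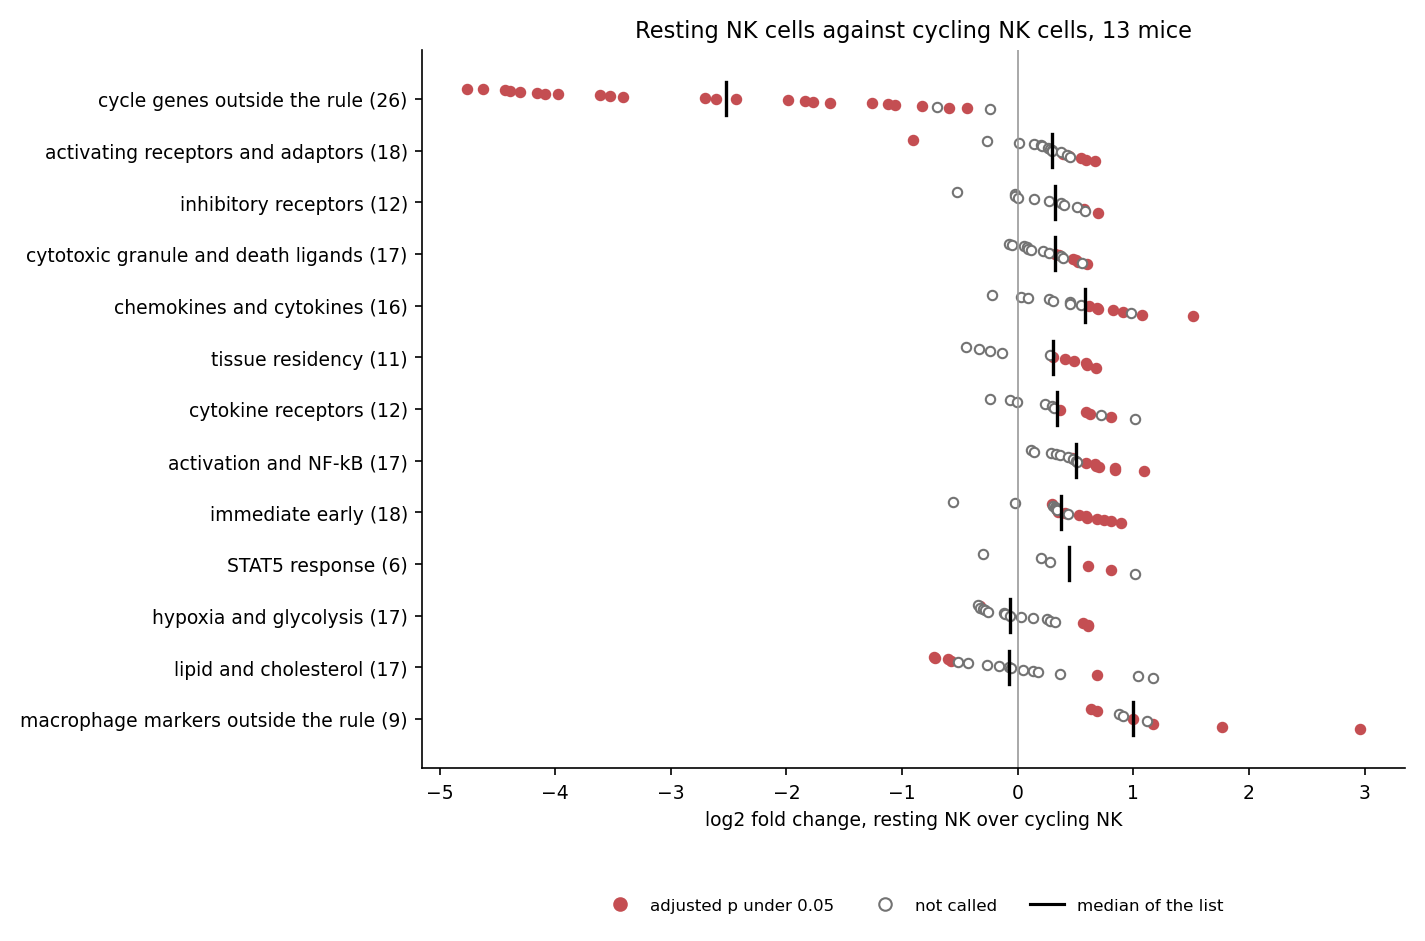
Log2 fold change of resting over cycling NK cells in 13 mice for the tested members of 13 gene lists, 1 point per gene, filled where the adjusted p from edgeR was under 0.05, with a bar at the list median. Cycle genes spread far to the left (24 of 26 lower), while chemokine, NF-kB and immediate early genes lay to the right of 0 by less than 1.6 for called members, and the macrophage marker VCAN stood at 2.96.

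The resting NK cells were also divided by FCGR3A, which encodes CD16. At least 1 UMI was found in 35.8% of resting NK cells, whose median depth was 5225 and 6513 UMIs in the reactions, and in 8.48% of CD8 T cells, which mostly lack CD16, at 5695 and 5847.5 UMIs. Detection of FCGR3A depended on depth. With each cell thinned to fewer UMIs, the mean share with FCGR3A fell from 38.1% to 15.0% in untreated mice. In maraviroc-treated mice this share fell from 33.9% to 11.01%. Cells without an FCGR3A UMI can therefore include cells that express it. A low number of calls thus does not show that cells with and without CD16 were alike. In the 10 mice with at least 10 cells on each side, 151 cells with FCGR3A were compared with 255 without, at a median over mice of 6500 and 6456 UMIs per cell. Of 3972 genes tested, 1 had an adjusted p under 0.05 by edgeR (0.0252%), namely CCL3, and DESeq2 likewise called 1. CCL3 was at 347 to 2480 CPM (median 1161) in cells with FCGR3A and at 265 to 1050 CPM (median 727) in cells without, higher in 10 of 10 mice with overlapping ranges (log2 fold change 0.73, standard error 0.14, adjusted p = 0.0325). The difference was 0.75 and 0.69 in reactions 1 and 2 alone and 0.68 with C1QA, C1QB and LYZ at 1 UMI or less, where it did not pass (adjusted p = 0.212, 0.585 and 0.154 by edgeR). It did not pass above 1000 genes per cell (0.71, 0.0704) or at 3 NK gene UMIs or more (0.58, 0.190) either, and with at least 80% of hashtag counts on 1 hashtag the difference was 0.29 (adjusted p = 0.918). Of 16 cytotoxic genes, 8 had an unadjusted p under 0.05, all higher in cells with FCGR3A, where 3.05% of all genes tested were higher at that threshold. Among the 8 were GZMA (0.57), GZMB (0.46) and NKG7 (0.42), and 0 of the list passed the adjustment. With all genes that had a count, GZMA and GZMK of the list passed (0.53 and 0.95, adjusted p = 0.0120 and 0.0181 by edgeR). HDAC9 was lowest in p on the other side (-1.29, adjusted p = 0.0917 by edgeR). It passed with all genes that had a count (-1.35, adjusted p = 2.23e-05 by edgeR) and in reaction 2 alone (-2.20, 0.0164), and had -0.51 in reaction 1 alone (0.714). With all genes that had a count 21 genes passed, 8 higher in cells with FCGR3A and 13 lower. CCL4 was among the higher (0.62, adjusted p = 8.31e-05 by edgeR). LTB (-0.88, 0.000121), PDE7B (-1.36, 2.82e-05), ELL2, CDC14A and ZNF683 were among the lower. At the 80% hashtag limit 12 genes passed, all lower, with LTB, PDE7B, ELL2 and CDC14A among them. FCGR3A is also a macrophage gene, found in 86.2% of the myeloid gate. Summed macrophage markers were at 3513 CPM (median 2155) in cells with FCGR3A and at 2135 (median 1958) in cells without, higher in 5 of 10 mice, and their part in these values was not tested.

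Whether maraviroc altered the resting NK cells was asked first of their number. Their share of kept cells was 3.13% ± 1.89 (SD, n = 7) in untreated mice, with a lowest value of 1.27%, a median of 2.17% and a highest of 6.67%, and 3.12% ± 1.25 (SD, n = 7) in maraviroc-treated mice, with 1.57%, 3.04% and 4.92%. The groups overlapped throughout. The difference, averaged over the reactions, was 0.185 percentage points (two-sided exact permutation of mice within reactions, p = 0.826, with 0.000816 the smallest p the design allows). It was 0.511 points in reaction 1 (exact p = 0.743) and -0.141 in reaction 2 (exact p = 0.857).

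For the share of NK cells in cycle no difference passed the test either. It was 34.8% ± 12.7 (SD, n = 7) in untreated mice (19.0% to 56.3%, median 36.6%) and 34.7% ± 7.49 (SD, n = 7) in maraviroc-treated mice (25% to 45%, median 34.9%). The difference was -0.686 points (two-sided exact permutation within reactions, p = 0.918). The share of resting NK cells with FCGR3A, after thinning each cell to 1500 UMIs and leaving out 15 shallower cells of reaction 1 and 1 of reaction 2, was 15.0% ± 3.79 (SD, n = 7) in untreated mice (10% to 20%) and 11.01% ± 5.87 (SD, n = 7) in maraviroc-treated mice (3.45% to 18.2%). The difference of -3.10 points did not pass the test (two-sided exact permutation within reactions, p = 0.149). In reaction 1 all 4 untreated mice stood above all 3 treated ones (-3.36 points, exact p = 0.0286, the smallest that 35 regroupings allow), and in reaction 2 the difference was -2.84 points (exact p = 0.514). The difference was -5.98 points with at least 3 NK gene UMIs (exact p = 0.00735), -4.73 without maraviroc replicate 3 of reaction 2 (exact p = 0.00143) and 3.26 with at least 80% of hashtag counts on 1 hashtag (exact p = 0.650), so neither its size nor its sign held over these settings. Without thinning the shares were 38.1% ± 5.24 and 33.9% ± 9.61 (SD, n = 7 each). These are 3 shares tested, and at the main setting with both reactions 0 passed before any adjustment for their number.

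**Figure D4:**
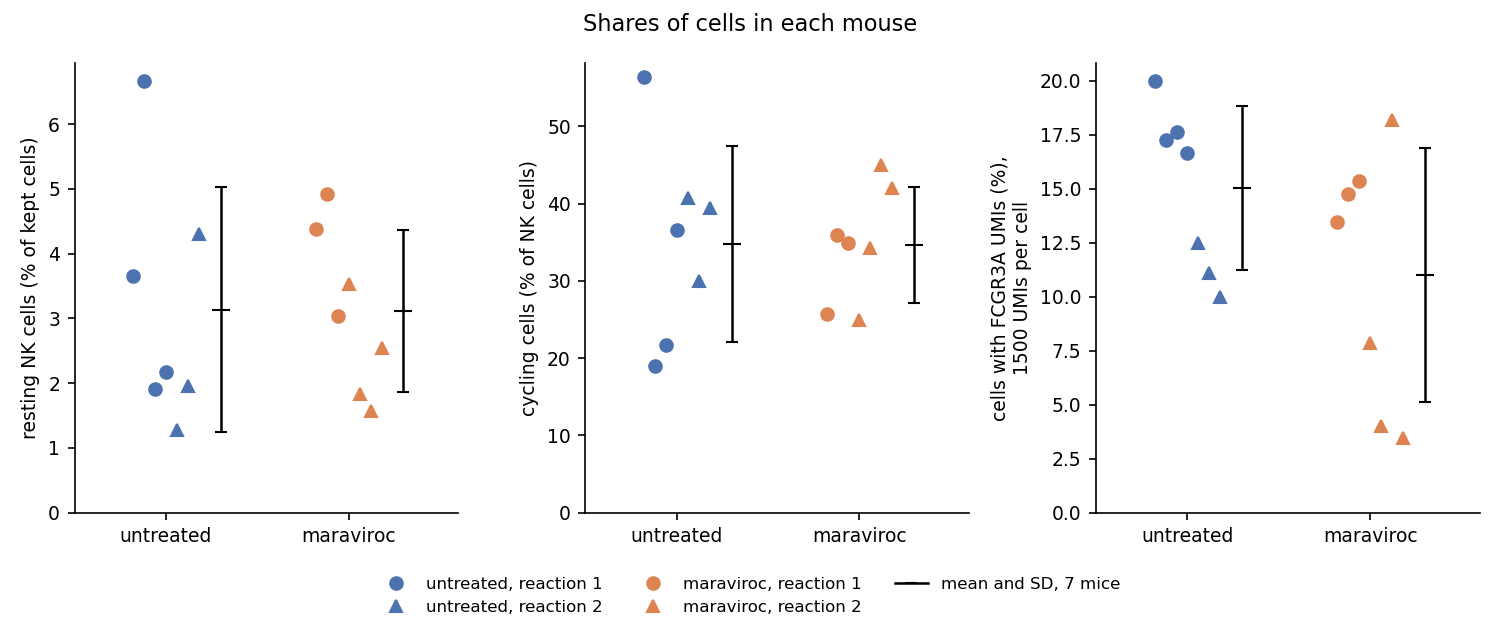
Each point is 1 mouse of 14 (circles reaction 1, triangles reaction 2), showing the percent of kept cells that were resting NK cells, the percent of NK cells in cycle, and the percent of resting NK cells with FCGR3A at 1500 UMIs per cell, with mean and SD of 7 mice per treatment. Untreated and maraviroc-treated mice overlapped in each panel, with mean shares of 3.13% and 3.12%, 34.8% and 34.7%, and 15.0% and 11.01%.

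The transcriptome of resting NK cells was then compared between treatments over the 14 mice, with the reaction in the model. No gene of 4225 tested had an adjusted p under 0.05 by edgeR (0%), and 166 had an unadjusted p under 0.05 (3.93%). DESeq2 likewise called 0, with 125 at an unadjusted p under 0.05. Over all genes tested the median was -0.006 on the log2 scale. With all 19153 genes that had a count, 46 were called (26 higher, 20 lower), MXD1, NFKBID and NFKBIA among them.

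The chemokine genes showed no called difference. CCL5 was at 2442 to 5639 CPM (median 3997) in untreated mice and at 2386 to 4801 CPM (median 2669) in treated mice. The ranges overlapped, 1 of 7 treated mice stood above the untreated median, and CCL5 differed by -0.31 on the log2 scale (standard error 0.15, adjusted p = 0.989 by edgeR), with -0.36 and -0.24 within reactions 1 and 2. With each mouse left out in turn CCL5 ranged from -0.45 to -0.21. CCL4 differed by -0.30 (standard error 0.21), or -0.45 to -0.15 with each mouse left out, and CCL3 by 0.09 (standard error 0.26).

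GNLY was at 8570 to 24258 CPM (median 15391) in untreated mice and at 8821 to 18699 CPM (median 13995) in treated mice, and differed by -0.15 (standard error 0.18), or by -0.27 to -0.02 with each mouse left out. XCL1 was at 302 to 1308 CPM (median 968) against 679 to 1348 CPM (median 1024) and differed by 0.13 (standard error 0.22). All these ranges overlapped. By list, 0 members passed by edgeR in any list. The median log2 fold change was -0.13 in 16 activating receptors and adaptors, -0.11 in 16 cytotoxic genes, 0.05 in 34 interferon-stimulated genes and 0.10 in 15 genes of activation and NF-kB signaling. Over the lists with at least 5 genes tested it ran from -0.21 in 10 genes of the TGF-beta response to 0.32 in 7 macrophage markers, of which 7 had a positive value. One of these, SPP1, had an unadjusted p under 0.05 (0.71, adjusted p = 0.989 by edgeR). The 16 macrophage markers summed to 2396 CPM in untreated and 2376 CPM in treated mice, and their part in the treatment values was not tested.

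**Figure D5:**
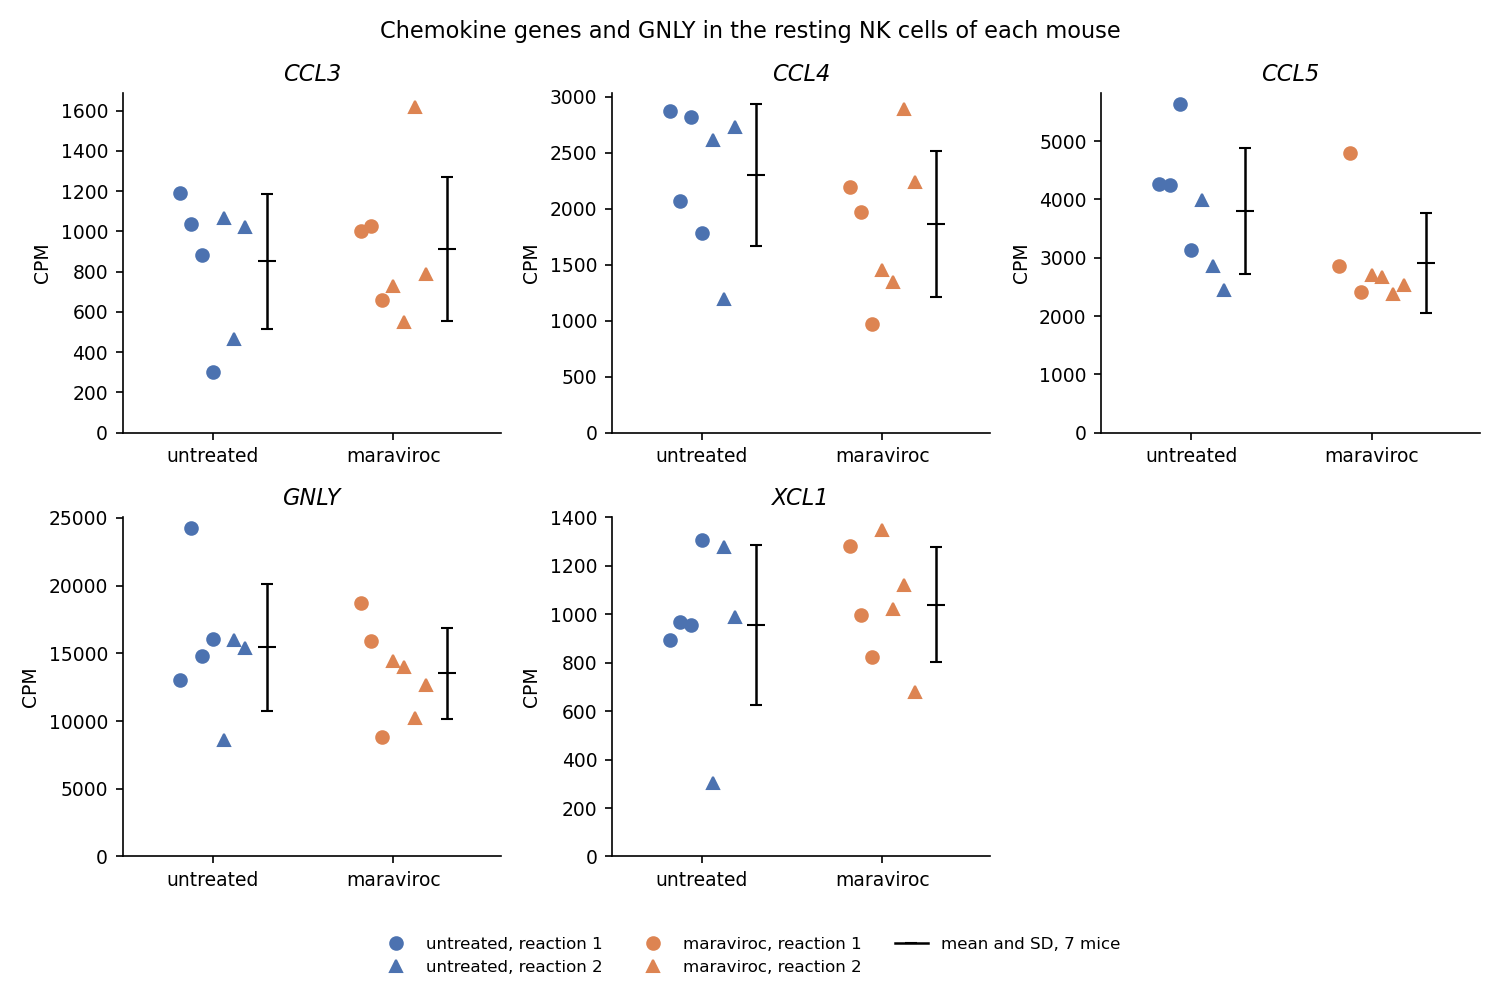
CPM of CCL3, CCL4, CCL5, GNLY and XCL1 in the resting NK cells of each of 14 mice (circles reaction 1, triangles reaction 2), with mean and SD of 7 mice per treatment. The groups overlapped in each panel, CCL5 had medians of 3997 and 2669 CPM, and 1 untreated mouse of reaction 2 stood low in XCL1 at 302 CPM.

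The genes of lowest p with the same sign in both reactions are given as values, since none passed. On the higher side in treated mice were MXD1, a repressor of MYC targets (1.04 on the log2 scale), the NF-kB inhibitors NFKBID (0.99) and NFKBIA (0.60), ANTKMT (0.69) and FRMD4B (0.96). NFKBIA was at 198 to 936 CPM (median 477) in untreated and at 504 to 887 CPM (median 697) in treated mice, of which 7 of 7 stood above the untreated median. On the lower side were ARL15 (-0.70), ARFIP1 (-0.91), S100PBP (-0.64), the histone demethylase gene KDM4C (-0.55) and the kinase gene SIK3 (-0.46). For each of the 10 genes the adjusted p by edgeR was 0.989.

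The difference between treatments was also tested for a difference between the reactions. No gene of 4837 passed (edgeR, 0%), 271 had an unadjusted p under 0.05 (5.6%), and DESeq2 called 0, with 154 at an unadjusted p under 0.05.

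More genes passed the test between the reactions than between the treatments. Ribosomal protein genes, GAPDH, TPI1, the ferritin gene FTL, CCL5 and KLRB1 were lower in reaction 2, and of the 4225 genes tested by edgeR 13.4% were called, 235 of them higher in reaction 2 (5.56%) and 333 lower (7.88%). DESeq2 called 597. The reactions held different mice and differed in depth. They also differed in the hashtag limit, which 26.6% of barcodes within the gene and mitochondrial limits passed in reaction 1 and 88.2% in reaction 2. These differences between the reactions cannot be told apart. Of 81 ribosomal protein genes tested, 77 were lower in reaction 2 and 0 higher, and their median was -0.67 on the log2 scale against 0.027 over all genes. RPL13A was at 985 to 1357 CPM in reaction 1 and at 434 to 711 CPM in reaction 2 (log2 fold change -1.11, adjusted p = 2.82e-05 by edgeR), without overlap. Of 14 hypoxia and glycolysis genes 7 were lower and 0 higher, among them GAPDH (-0.89) and TPI1 (-1.01).

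Among NK genes, CCL5 was at 2408 to 5639 CPM (median 4251) in reaction 1 and at 2386 to 3997 CPM (median 2669) in reaction 2, an overlapping pair of ranges with a log2 fold change of -0.55 (adjusted p = 0.0216 by edgeR). KLRB1 differed by -0.80. NKG7 differed by -0.43 and TYROBP by -0.44, but neither passed with all genes that had a count (-0.40 and -0.41, adjusted p = 0.0872 and 0.134 by edgeR), and TYROBP did not pass with C1QA, C1QB and LYZ at 1 UMI or less (-0.38, 0.0624) or without untreated replicate 1 of reaction 2 (-0.33, 0.0635). GNLY did not pass (-0.38, adjusted p = 0.158 by edgeR), but did after thinning each cell to 1500 UMIs (-0.40, adjusted p = 0.0312). Higher in reaction 2 were the chromatin genes SFMBT2 (0.84) and CHD2 (0.72), NCOA2, CDC42SE2, MIR181A1HG, the factor RORA (0.87) and the integrin gene ITGA4 (0.48), which did not pass with all genes that had a count (0.49, adjusted p = 0.103 by edgeR) or without untreated replicate 1 of reaction 2 (0.38, 0.0735). At the 80% hashtag limit none of these NK genes, of the genes named as higher in reaction 2, or of GAPDH, TPI1, FTL and SPP1 passed. There SFMBT2, CHD2 and RORA had 0.84, 0.97 and 0.82, KLRB1 -0.80, CCL5 -0.49, FTL -2.06, TPI1 -0.90, GAPDH -0.64 and SPP1 -1.36, while ITGA4 had 0.26, NKG7 -0.26 and TYROBP -0.30. FTL differed by -1.86 and SPP1 by -1.98, beside the lower sum of macrophage markers in reaction 2. KRT81, the 1 tumor cell marker tested, was also called lower in reaction 2 (-1.24), but not at the 80% hashtag limit (-0.82, adjusted p = 0.467 by edgeR). Of 5 T cell markers tested, 1, CD3E, was called lower and 0 higher. With C1QA, C1QB and LYZ at 1 UMI or less, an alternative chosen for this comparison after seeing the data, 583 genes were called. After thinning each cell to 1500 UMIs, 320 of the called genes could be tested again, and 320 kept their sign with 248 called.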

How the data were processed

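Cells were profiled by 3' droplet RNA-seq (Chromium v3.1) with hashtag antibodies. The authors deposited UMI counts per gene and hashtag for the barcodes called by Cell Ranger 9.0.1 on GRCh38, without normalization; Seurat 5.1.0 was used by the authors for later steps and is not part of these counts. Totals were 133089612 gene UMIs over 29120 barcodes in reaction 1 and 175447534 over 13582 in reaction 2. Hashtag names gave the treatment of each mouse. The authors' HTODemux and Harmony steps were not used here.

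Members, gene lists and tests were chosen with earlier results of these data known. Counts were summed per mouse and gate, filtered by filterByExpr, scaled by TMM and tested with edgeR 4.0.16 (quasi-likelihood) under R 4.3.3, with the reaction or the mouse in the model. DESeq2 1.42.0, other limits on cells and genes, thinning, single reactions and each mouse left out were the alternatives. Shares were tested by exact permutation within reactions, all 1225 regroupings. Named genes were, per list, the 4 most abundant, the 4 of lowest p and the chemokine genes CCL3, CCL4 and CCL5, and the 10 genes of lowest p in each direction (5 where under 10 passed). Genes that share reads with copies stayed in. Some genes that the rule names are not reported here. The fits were tested on simulated data. Python 3.11.15 with NumPy 2.4.6, SciPy 1.17.1, pandas 2.3.3 and matplotlib 3.10.9 were used. Nothing in the labels says whether mice of a group shared a graft donor or litter, so p-values measure the spread between these mice.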

Additional observations from a re-analysis of the deposited data

Results flagged for a closer look

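In 40 groups of 7 mice checked, 4 had a mouse that stood far from the others (its gap to the nearest mouse was a large part of the group's range, by Dixon's test at 95%), where chance alone gives about 1 in 20. Among untreated mice, XCL1 was lowest at 301.7 CPM in replicate 1 of reaction 2, with the next mouse at 893 and a group median of 968.1. The same mouse had the highest sum of B cell markers in its resting NK cells, at 744.8 CPM, with the next at 141.5 and a median of 58.24. It also had the fewest resting NK cells, 16. Among maraviroc-treated mice, CCL5 was highest at 4801 CPM in replicate 2 of reaction 1, with the next at 2866 and a median of 2669. The sum of plasmacytoid dendritic cell markers was highest at 58.17 CPM in replicate 4 of reaction 2, with the next at 11.19 and a median of 0.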

How the results depend on the processing

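Direction and call were the same for most results. With all genes that had a count, 46 genes were called for treatment, 54 for its interaction with the reaction and 21 for FCGR3A. The stricter limit of 80% on the hashtag left 226 cells and 10 mice with at least 10, and gave 232 calls against CD8 T cells, 372 against cycling NK cells, 12 for FCGR3A (0 higher, 12 lower) and 9 between reactions, the last chosen after seeing the data. Reaction 1 alone gave 269 calls against CD8 T cells, 352 against cycling NK cells and 0 for FCGR3A (edgeR, 292 at an unadjusted p under 0.05). Above 1000 genes per cell and at 3 UMIs or more of the NK genes, FCGR3A had 0 calls (224 and 227 unadjusted), and reaction 2 alone had 1 call, which was lower. At 3 NK UMIs the reactions differed in 375 genes, and after thinning in 359 of 872. The cause of these changes was not tested, although fewer cells or mice were in several.

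The difference in resting NK share was -0.0176 points with all mice permuted together, -0.677 with cells thinned before the gates, and -0.125 to 0.697 with each mouse left out (-0.0983, -0.0531, -0.0165 and -0.00912 in the others below 0). That in cycling share was 0.130 at the 80% hashtag limit, 2.26 with thinning, and -3.09 to 3.13 with each mouse left out (0.321, 0.935 and 1.24 in the others above 0). That in FCGR3A share was 3.26 at the 80% limit, -5.98 (exact p = 0.00735) at 3 NK UMIs, and -4.73 to -2.28 with each mouse left out, where it passed without maraviroc replicate 3 of reaction 2 (exact p = 0.00143). Over each mouse left out, 0 genes were called for treatment (0 to 0). Without untreated replicate 1 of reaction 2, also chosen after seeing the data, 438 genes differed between reactions, 864 from CD8 T cells and 1063 from cycling NK cells.

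Small log2 values changed sign. For treatment, XCL1 was -0.0214 at the 80% limit, -0.0129 at 3 NK UMIs and -0.0478 without untreated replicate 1 of reaction 2, and CCL3 was -0.0951 to 0.178 with each mouse left out (-0.0389 and -0.0427 in the others below 0). Against CD8 T cells, GZMA was -0.0261 at the 80% limit, and CCL5 was -0.00449 with DESeq2 size factors, -0.0719 in reaction 2 and -0.0137 without untreated replicate 1 of reaction 2. Against cycling cells CCL3 was -0.0459 in reaction 1, and for FCGR3A, CCL4 was -0.0597 at the 80% limit. No paired analysis by replicate number was possible because the labels give the mice no numbers that are shared between treatments. The replicate numbers used here follow the order of the hashtags within a treatment and reaction, only name a mouse and pair none. With 16 to 64 cells per mouse, genes of few UMIs did not pass the filter on low counts and were not tested.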

Other observations

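The limit on hashtag counts removed unequal numbers of NK cells. It was passed by 26.6% of the barcodes of reaction 1 that met the limits on genes and mitochondrial counts and by 88.2% of those of reaction 2. Of 913 barcodes of reaction 1 that met the NK limits, 630 had no hashtag at 60% or more, and of 275 in reaction 2, 64 had none.

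In the test of whether the treatment difference depended on the reaction, 5.6% of all genes had an unadjusted p under 0.05. Values are given for 4 lists that were picked after their values were seen. They held 6 of 12 heat shock genes, with a median of -1.02 on the log2 scale, 7 of 34 interferon-stimulated genes, with a median of 0.36, 4 of 14 cycle genes, with a median of -0.69, and 3 of 7 macrophage markers, with a median of 2.20, where a negative value is a lower difference between maraviroc-treated and untreated mice in reaction 2 than in reaction 1. HSPA1A had -1.57 (standard error 0.66) and HSPB1 -1.33 (0.46), with adjusted p = 0.846 and 0.816 by edgeR. No gene of these lists passed the adjustment.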
